A study of Tupaia belangeri chinensis with 36 samples.

Results

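The marginal zone (MZ) and the outer part of the cortical plate (CPo) of the E37 cortex were compared in the fetal Chinese tree shrew, through the count libraries labelled with these layers. There were 4 such libraries among the 36 analysed, 2 of the MZ and 2 of the CPo, and both layers carried replicate numbers 2 and 3. The tissue was fetal cortex of *Tupaia belangeri chinensis* at embryonic day 37, with no treatment or genetic change named for either layer. Each layer was cut by laser from Nissl-stained frozen sections, and poly(A) RNA was made into libraries. Whether the RNA of 1 library came from 1 embryo or several is not given in the sources used here.

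The MZ is the outermost layer of the developing cortex, directly beneath the pia. It holds Cajal-Retzius cells, early-born neurons that secrete reelin and guide the arrival of new neurons, together with migrating interneurons, the tips of radial glial processes, vessels and the first dendrites of the neurons below. The CPo lies just beneath it and holds the youngest excitatory neurons, which have ended their migration and will form the upper layers.

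Counts on annotated features summed to 17932690 in MZ replicate 2, 37278157 in MZ replicate 3, 24977639 in CPo replicate 2 and 30035522 in CPo replicate 3. Reads that did not align took 23.1% of the lines of MZ replicate 2 and 13.2% to 15.1% of those of the 3 others, and the part of this in the results was not tested beyond the counts without that library below. The annotation lists 76871 features. Of these, 21043 carry a TSDBGID identifier, which no table used here pairs with a gene symbol, so these features (98.0% to 98.3% of the counts of a library) are described by counts only. Gene names enter through 31776 LINC features (LINC-SYMBOL-n) and 22595 antisense features (SYMBOL-AS-n), which took 0.811% to 0.902% and 0.854% to 1.04% of the counts of these libraries. Such a feature is named after a gene and does not measure it. Since no source used here says that strand was kept in counting, reads of an AS feature cannot be told apart from those of the gene it overlaps. Values below are CPM (a feature's count per 1000000 counts on features, with library sizes scaled by TMM), given in the order replicate 2, replicate 3, and a positive log2 fold change is higher in the MZ. In these bulk samples, fewer cells of a type and less RNA per cell cannot be told apart.

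Across all features, more rose in the MZ than in the CPo, and they differed by more. Of 15570 features tested, 3518 (22.6%) differed at an adjusted p under 0.05 (edgeR quasi-likelihood test, Benjamini-Hochberg), 2115 higher in the MZ and 1403 higher in the CPo. The median log2 fold change was 1.95 among the former and −0.79 among the latter. A log2 difference above 2 was found for 1023 features higher in the MZ and for 80 higher in the CPo. The features higher in the MZ took 22.1% and 25.1% of the counts of the MZ libraries against 11.6% and 9.89% of the CPo libraries. Features higher in the CPo took 25.2% and 26.7% of the counts of the CPo libraries against 16.9% and 13.4% of the MZ libraries. When the 20 most abundant features were left out of the library size, 1880 were higher in the MZ and 1949 in the CPo. With the replicate number as a block, 2948 and 2445 passed. Without MZ replicate 3 the counts were 1186 and 257, without CPo replicate 3 they were 1092 and 653, and without CPo replicate 2 they were 1554 and 835.

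Among the 2546 LINC and AS features tested, 189 (7.42%) differed. Of these, 118 (4.63%) were higher in the MZ, 58 of them LINC and 60 AS features, with a median log2 fold change of 3.21 (2.96 with features at 0 in the CPo set to their lower bound). The other 71 (2.79%) were higher in the CPo, 18 LINC and 53 AS features, with a median of −2.02. TMM factors computed from LINC and AS features alone gave 80 higher in the MZ and 83 higher in the CPo, with the median of all features moved by −0.15 on the log2 scale. The replicate block gave 181 and 129. Without MZ replicate 3 there were 52 and 28, without CPo replicate 3 there were 47 and 25, and without CPo replicate 2 there were 60 and 38. Both libraries of one layer lay above both of the other for 41.8% of the LINC and AS features tested and for 57.3% of all features tested, and 16 of the features higher in the MZ had no count in the CPo libraries, while 9 of those higher in the CPo had none in the MZ libraries. Within replicate 2 and within replicate 3, every one of the 189 differed in the direction of its call. These same libraries chose the 189, so that agreement was largely fixed in advance. The differences within replicate 2 and within replicate 3 were more than 1 log2 unit apart for 46 of the 118 and for 27 of the 71.

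**Figure D1:**
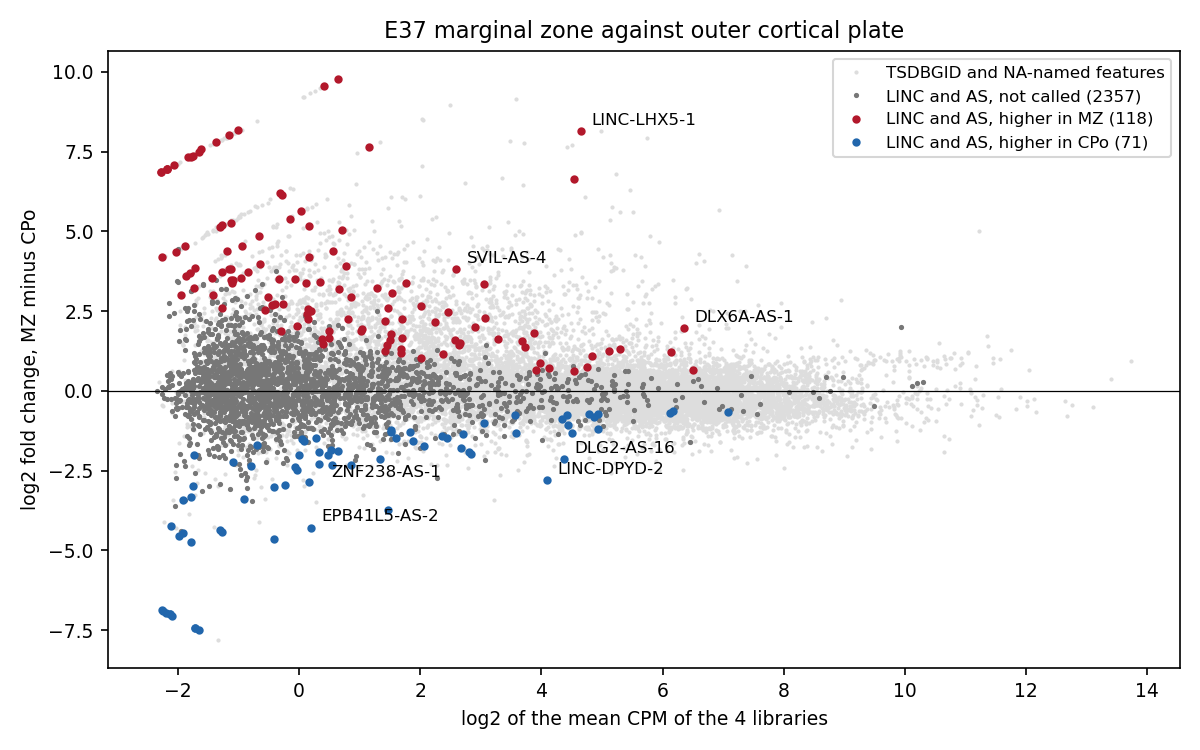
Log2 fold change between the MZ and the CPo at E37 (y axis) against the log2 of the mean CPM of the 4 libraries (x axis), 1 point per feature tested. The 118 LINC and AS features higher in the MZ (red) reach farther from 0 than the 71 higher in the CPo (blue), and LINC-LHX5-1 combines a high level with a large difference.

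LINC-LHX5-1 combined a high level with a large difference and was found nearly only in the MZ of these 4 libraries. LHX5 is a LIM homeobox gene of Cajal-Retzius cells and of the cortical hem. LINC-LHX5-1 had 31.1 and 69.0 CPM in the MZ libraries and 0.258 and 0.101 CPM in the CPo libraries (log2 fold change 8.15 ± 0.81 SE, n = 2 per layer, adjusted p = 1.07e-06, edgeR). In the other E37 layers its level was 0.106 and 0.263 CPM in the inner cortical plate (CPi) and at most 0.349 CPM in the 3 intermediate zone (IZ) libraries. Each MZ library stood far above each CPo library, and MZ replicate 3 was the highest of the 4.

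Other features with large differences toward the MZ were lower in level. MYOCD-AS-3, named after the gene for the smooth muscle and heart coactivator myocardin, had 1.64 and 4.58 CPM in the MZ. LINC-RALGAPA1-1 had 1.42 and 3.91 CPM there. Neither had a count in the CPo libraries, so the MZ was at least 64.2-fold higher for the first and at least 54.9-fold higher for the second, against a floor of 3 counts over the CPo group. LINC-DMRTA2-1, named after a transcription factor gene of the cortical hem and medial cortex, had 1.19 and 7.66 CPM against 0 and 0.0337 CPM. TNC-AS-2, antisense to the gene for the matrix protein tenascin C, had 0.907 and 2.28 CPM against 0 and 0.0337 CPM. Each of these had 1 count over the CPo libraries, and the ratios were 296 (exact 95% interval 52.7 to 11711) and 97.2 (17.1 to 3878). For these 4 features MZ replicate 3 was the higher library. LINC-TSPAN6-1 (2.78 and 0.482 against 0.0430 and 0 CPM), LINC-SOX1-3 (2.49 and 1.05 against 0.0430 and 0.0337 CPM) and LINC-IRX6-2 (4.65 and 1.74 against 0.0430 and 0.135 CPM) were instead higher in MZ replicate 2. IRX6 is an Iroquois homeobox gene. A pair of features named after NDST4, a heparan sulfate modifying enzyme, moved alike, LINC-NDST4-3 with 0.850 and 3.19 CPM and LINC-NDST4-1 with 1.13 and 3.22 CPM in the MZ, and with at most 0.0859 CPM in a CPo library. With 1 library left out, significance was lost for LINC-TSPAN6-1 (without MZ replicate 2, adjusted p = 0.0715), TNC-AS-2, LINC-NDST4-3 and LINC-NDST4-1 (without MZ replicate 3, adjusted p from 0.0579 to 0.0887), TNC-AS-2 and LINC-NDST4-1 (without CPo replicate 2, adjusted p = 0.0748 and 0.0509), and TNC-AS-2, LINC-TSPAN6-1, LINC-NDST4-3 and LINC-NDST4-1 (without CPo replicate 3, adjusted p from 0.0550 to 0.103).

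**Figure D2:**
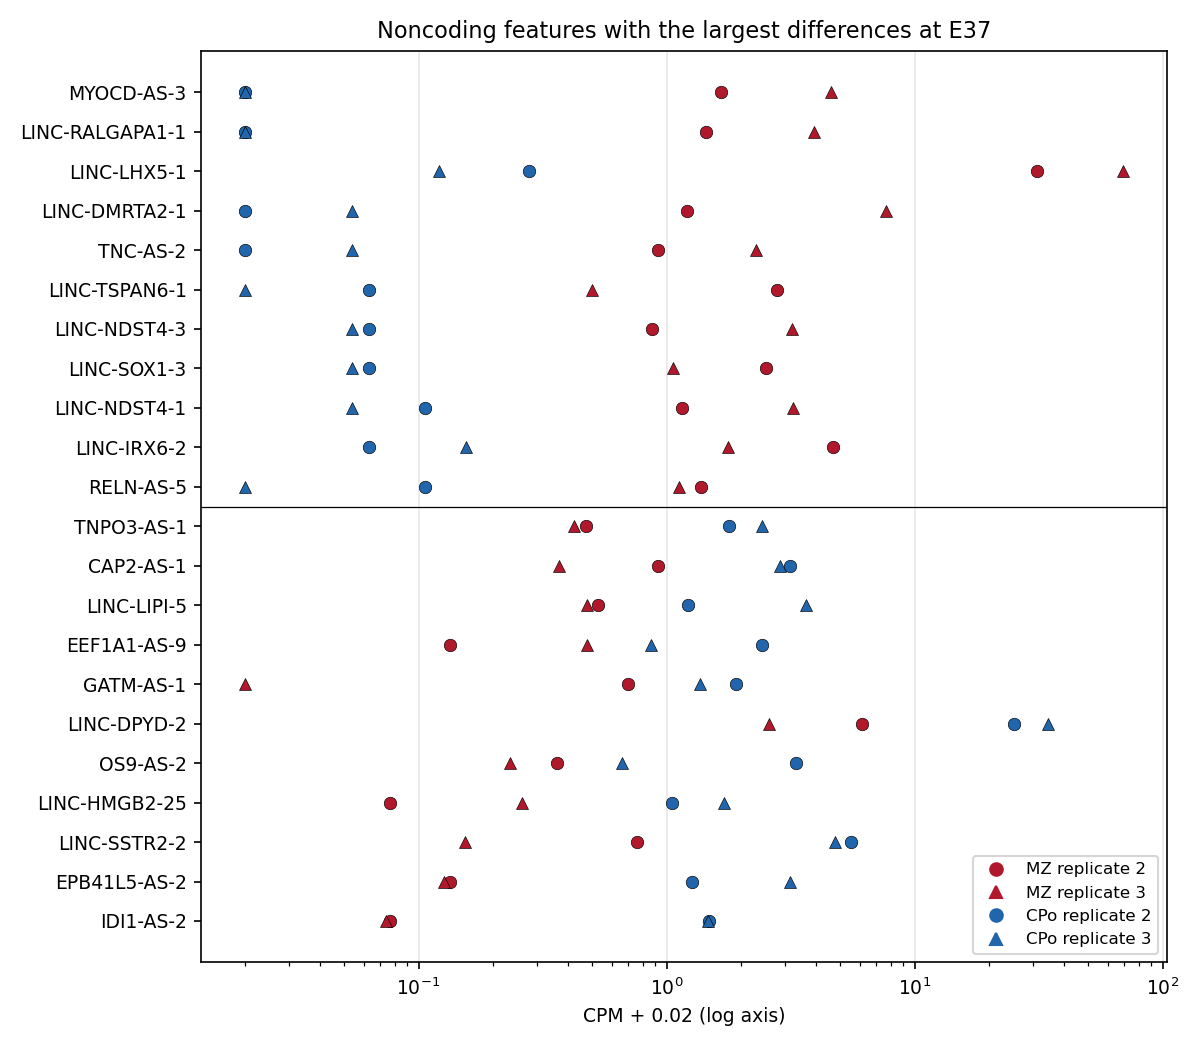
CPM + 0.02 (x axis, log scale) of 11 LINC and AS features in each direction, from the 12 with the largest difference, 1 symbol per library. By the rule that chose them, red MZ symbols stand right of blue CPo symbols in every row above the line. They stand left of them in every row below it.

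On the CPo side, LINC-DPYD-2 combined a high level with a large difference. It had 6.12 and 2.57 CPM in the MZ and 25.1 and 34.4 CPM in the CPo (log2 fold change −2.80 ± 0.45, adjusted p = 1.56e-04). DPYD codes for an enzyme of pyrimidine breakdown. Its level in the CPi, 20.2 and 24.0 CPM, was also above both MZ libraries. IDI1-AS-2, antisense to an isoprenoid enzyme gene, had 0.0567 and 0.0536 CPM in the MZ against 1.46 and 1.45 CPM in the CPo. EPB41L5-AS-2, antisense to a gene for a membrane-cytoskeleton linker, had 0.113 and 0.107 against 1.25 and 3.14 CPM. Its neighbour in name, EPB41L5-AS-4, also fell in the MZ, at 0.850 and 0.456 against 1.72 and 1.82 CPM. LINC-SSTR2-2, named after a somatostatin receptor gene, had 0.737 and 0.134 against 5.50 and 4.76 CPM. GATM-AS-1, antisense to a creatine synthesis gene, had 0.680 and 0 against 1.89 and 1.35 CPM, and CAP2-AS-1, antisense to an actin regulator gene, had 0.907 and 0.348 against 3.14 and 2.83 CPM. OS9-AS-2 (0.340 and 0.214 against 3.31 and 0.641 CPM), TNPO3-AS-1 (0.454 and 0.402 against 1.76 and 2.40 CPM) and LINC-LIPI-5 (0.510 and 0.456 against 1.20 and 3.64 CPM) differed in the same direction. LINC-HMGB2-25 (0.0567 and 0.241 against 1.03 and 1.69 CPM) and EEF1A1-AS-9 (0.113 and 0.456 against 2.41 and 0.844 CPM) are uncertain, since 36 features carry the symbol HMGB2 and 178 carry EEF1A1, and near-identical copies can share reads. Significance was lost on leaving out a library for IDI1-AS-2, TNPO3-AS-1, LINC-LIPI-5, LINC-HMGB2-25 and EEF1A1-AS-9 (without MZ replicate 2, adjusted p from 0.0536 to 0.143), IDI1-AS-2, EPB41L5-AS-4, LINC-SSTR2-2, GATM-AS-1, CAP2-AS-1, OS9-AS-2, TNPO3-AS-1, LINC-LIPI-5 and LINC-HMGB2-25 (without MZ replicate 3, adjusted p from 0.0917 to 0.354), EPB41L5-AS-4, GATM-AS-1, OS9-AS-2 and EEF1A1-AS-9 (without CPo replicate 2, adjusted p from 0.102 to 0.410), and EPB41L5-AS-4, GATM-AS-1, TNPO3-AS-1, LINC-LIPI-5 and LINC-HMGB2-25 (without CPo replicate 3, adjusted p from 0.0661 to 0.346).

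Features named after markers of Cajal-Retzius cells differed mainly toward the MZ. Of 27 marker symbols, 21 had a LINC or AS feature, and 5 features passed the filter on low counts. Of these 5, 3 were higher in the MZ (LINC-LHX5-1, LINC-DMRTA2-1 and RELN-AS-5) and none higher in the CPo (3 and 1 with the replicate number as a block). The median log2 fold change was 4.84 against 0.09 over all LINC and AS features tested. The 3 had fewer than 10 counts in each CPo library, so they passed the filter through the MZ libraries alone. Their share and the median were therefore partly set by the filter. All features of the list summed to 41.6 and 86.9 CPM in the MZ and to 5.58 and 4.15 CPM in the CPo, with LINC-LHX5-1 the main part of the MZ sums, and 7 of the symbols had no count in the 4 libraries. RELN-AS-5, antisense to the gene for reelin, had 1.36 and 1.10 CPM in the MZ and 0.0859 and 0 CPM in the CPo (adjusted p = 0.0317, edgeR). With 65 counts in the MZ and 2 in the CPo, the ratio was 31.3 (exact 95% interval of counting error 8.32 to 264). It passed in 6 of 15 alternative analyses. LINC-TP73-1, named after another gene of these cells, had 4.99 and 4.88 CPM in the MZ and 3.65 and 2.97 CPM in the CPo. It did not pass (log2 fold change 0.58 ± 0.34, adjusted p = 0.247, edgeR). The remaining feature tested, LINC-NHLH1-1, did not pass either, and with the replicate block it was the 1 higher in the CPo.

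Interneurons enter the cortex partly along the MZ. Of 9 features tested that carry symbols of interneuron genes, 4 were higher in the MZ and none in the CPo (7 and none with the replicate block). The median log2 fold change was 3.16. These 4 had fewer than 10 counts in each CPo library and passed the filter on low counts through the MZ libraries alone. Their share and the median were therefore partly set by the filter. The list summed to 21.4 and 16.7 CPM in the MZ and to 3.52 and 1.35 CPM in the CPo, with 3 symbols at 0 in the 4 libraries. GAD1-AS-1, antisense to a GABA synthesis gene, had 2.04 and 1.88 CPM in the MZ and 0.387 and 0.304 CPM in the CPo (log2 fold change 2.50 ± 0.71, adjusted p = 0.0140). HTR3A-AS-1, antisense to the serotonin receptor gene that marks a class of interneurons, had 3.29 and 3.11 against 0.215 and 0.202 CPM. SST-AS-1, antisense to the somatostatin gene, had 1.47 and 0.536 against 0.0859 and 0 CPM. RELN-AS-5, described above, is the other one on the list, since interneurons and Cajal-Retzius cells both make reelin. DLX5-AS-1, GAD1-AS-2, GAD2-AS-1, LHX6-AS-1 and LINC-NR2F2-1, of the same list, did not pass. DLX6A-AS-1, outside the list, bears the name of a homeobox gene of the interneuron lineage. By its mean in the MZ it was the most abundant of the 118 LINC and AS features higher there. It had 204 and 56.3 CPM against 53.1 and 13.5 CPM (log2 fold change 1.96 ± 0.70, adjusted p = 0.0470, edgeR), and it passed in 6 of 15 alternative analyses. The layers were only just apart, with CPo replicate 2 close to MZ replicate 3, whereas within replicate 2 and within replicate 3 the log2 difference was 1.94 and 2.05, and in the 3 IZ libraries it had 55.0, 81.7 and 20.8 CPM. No longer significant with 1 library fewer were SST-AS-1, RELN-AS-5 and DLX6A-AS-1 (without MZ replicate 2, adjusted p from 0.0583 to 0.500), GAD1-AS-1 and RELN-AS-5 (without MZ replicate 3, adjusted p = 0.0546 and 0.0887), GAD1-AS-1, HTR3A-AS-1 and RELN-AS-5 (without CPo replicate 2, adjusted p from 0.0553 to 0.0826), and GAD1-AS-1, HTR3A-AS-1, SST-AS-1, RELN-AS-5 and DLX6A-AS-1 (without CPo replicate 3, adjusted p from 0.102 to 0.320).

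Among the features named after genes of upper-layer neurons, 2 of 17 tested were higher in the CPo, none was higher in the MZ, and the median log2 fold change was −0.31. With the replicate block, 5 were higher in the CPo and 1 in the MZ. Neither of the 2 passed without CPo replicate 2 or without CPo replicate 3. The list summed to 68.9 and 92.1 CPM in the MZ and to 110.4 and 138.6 CPM in the CPo, with 2 symbols at 0. LINC-POU3F3-23 (0.964 and 1.15 against 2.92 and 3.98 CPM, adjusted p = 0.104) and LINC-MEF2C-15 (0 and 0.161 against 0.730 and 1.45 CPM, adjusted p = 0.0663) did not pass. None of the 3 features tested with deep-layer symbols passed (median 1.08, summed levels of 2.95 and 4.10 CPM in the MZ and 3.22 and 3.31 CPM in the CPo, 4 symbols at 0).

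Other cell types of the MZ and the surface above it were looked for in the same way. Of 3 features tested with symbols of microglia and blood cells, 2 were higher in the MZ, and 1 of these was when CPo replicate 3 was left out. It was SALL1-AS-1, antisense to a zinc finger gene of microglia and neural progenitors, at 3.06 and 2.65 CPM in the MZ and 0.387 and 0.236 CPM in the CPo (log2 fold change 3.20 ± 0.60, adjusted p = 6.50e-04). LINC-PTPRC-4, named after the pan-leukocyte gene, did not pass, at 9.47 and 11.3 against 12.5 and 10.7 CPM, and the list summed to 24.4 and 23.0 CPM in the MZ and 15.9 and 12.5 CPM in the CPo, with 6 symbols at 0. Among 8 features of radial glia and astrocytes, 2 were higher in the MZ, TNC-AS-2 and LINC-SOX9-15 (0.964 and 0.482 against 0.0859 and 0.135 CPM), and the list summed to 16.6 and 22.9 against 11.3 and 11.5 CPM, with 5 symbols at 0. LINC-SOX2-2 (2.89 and 2.14 against 1.03 and 0.202 CPM, adjusted p = 0.117) and AQP4-AS-1 (4.31 and 4.80 against 2.88 and 3.21 CPM) did not pass. Of 5 endothelial features, LINC-ROBO4-1 alone was higher in the MZ (0.624 and 0.402 against 0.0430 and 0.0337 CPM), with a list sum of 8.96 and 9.54 against 6.19 and 7.36 CPM and 6 symbols at 0. LINC-ETS1-5 (0.964 and 1.21 against 0.644 and 0.135 CPM) and LINC-MECOM-1 (1.25 and 1.02 against 1.25 and 2.19 CPM), of the same list, did not pass. Neither of 2 meningeal features passed, the list summed to 4.54 and 1.55 against 1.37 and 2.43 CPM, with 7 symbols at 0, and no feature of pericytes (sum 0.510 and 0.241 against 0.0859 and 0.337 CPM, 6 symbols at 0) or of oligodendrocyte precursors (sum 1.25 and 4.05 against 0.0430 and 0.135 CPM, 2 symbols at 0) passed the filter on low counts. The part of these other cell types in the differences between the layers was not tested. The threshold was missed with 3 libraries for LINC-SOX9-15 and LINC-ROBO4-1 (without MZ replicate 2, adjusted p = 0.149 and 0.0650), LINC-SOX9-15 and LINC-ROBO4-1 (without MZ replicate 3, adjusted p = 0.0622 and 0.0594), LINC-SOX9-15 and LINC-ROBO4-1 (without CPo replicate 2, adjusted p = 0.170 and 0.104), and LINC-SOX9-15 and LINC-ROBO4-1 (without CPo replicate 3, adjusted p = 0.129 and 0.147).

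**Figure D3:**
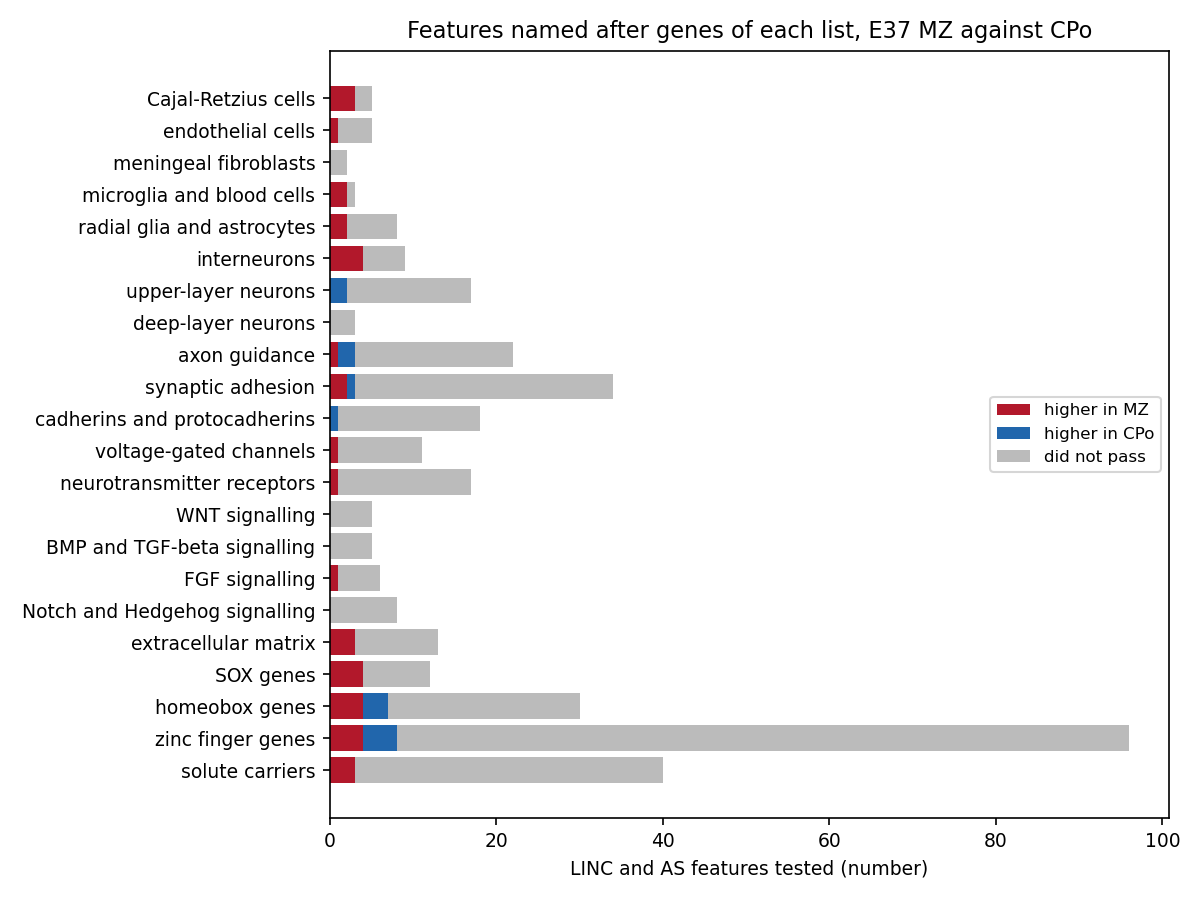
Number of LINC and AS features tested per gene list (bar length), split into those higher in the MZ (red), higher in the CPo (blue) and not passing (grey). Over all LINC and AS features tested, 4.63% were higher in the MZ and 2.79% in the CPo. Red sections are long relative to the bar for Cajal-Retzius cells (3 of 5) and interneurons (4 of 9), features that passed the filter through the MZ alone. Upper-layer neurons (2 of 17) and cadherins (1 of 18) have a blue section and no red one, too few to give these lists a direction.

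Transcription factor families were read against the 4.63% of LINC and AS features higher in the MZ and the 2.79% higher in the CPo. Of 12 features with SOX symbols, 4 were higher in the MZ and none in the CPo. Of these, 3 carry the name of SOX1, a progenitor and interneuron gene. They are all the SOX1 features tested, of 8 annotated. Each passed the filter on low counts through the MZ libraries alone, so their shared direction was partly set by the filter. Whether they are separate transcripts was not tested. LINC-SOX1-1 had 2.10 and 1.42 CPM in the MZ and 0.0859 and 0.202 CPM in the CPo (log2 fold change 3.52 ± 0.64, adjusted p = 4.43e-04), and LINC-SOX1-7 had 1.25 and 0.456 against 0.0859 and 0.0675 CPM. LINC-SOX11-14, named after a gene of young neurons, had 2.66 and 3.83 against 6.27 and 10.5 CPM and did not pass (adjusted p = 0.116). Of 30 features with homeobox symbols, 4 were higher in the MZ (DLX6A-AS-1, LINC-IRX6-2, LINC-LHX5-1 and LINC-ZEB1-2) and 3 in the CPo, among them ZEB2-AS-4. LINC-ZEB1-2 had 0.510 and 1.47 CPM in the MZ and no count in the CPo, which is at least 20.5-fold. ZEB2-AS-4 went the other way, at 3.63 and 2.01 against 6.40 and 8.47 CPM. ZEB1 is a repressor kept on in progenitors, and ZEB2 its relative in young neurons. Of 96 zinc finger features, 4 were higher in each layer, a share near that of all LINC and AS features. The replicate block gave 5 and 1 SOX features, 7 and 5 homeobox features, and 8 and 7 zinc finger features higher in the MZ and in the CPo. ZNF238-AS-1, antisense to a repressor gene needed as neurons form, had 3.34 and 2.49 CPM in the MZ and 10.8 and 11.2 CPM in the CPo (log2 fold change −1.92 ± 0.42, adjusted p = 0.00241). LINC-ZNF420-2 (24.4 and 21.7 against 34.7 and 41.2 CPM) and ZBTB34-AS-1 (14.4 and 11.7 against 43.0 and 22.3 CPM) were also lower in the MZ, while ZNF416-AS-2 was higher there (18.9 and 24.6 against 11.0 and 15.5 CPM). Leaving out single libraries ended significance for ZEB2-AS-4, ZNF238-AS-1, LINC-ZNF420-2, ZBTB34-AS-1 and ZNF416-AS-2 (without MZ replicate 3, adjusted p from 0.0526 to 0.350), ZEB2-AS-4, ZBTB34-AS-1 and ZNF416-AS-2 (without CPo replicate 2, adjusted p from 0.0721 to 0.252), and LINC-SOX1-7, ZEB2-AS-4 and LINC-ZNF420-2 (without CPo replicate 3, adjusted p from 0.0526 to 0.201).

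Genes of the matrix, adhesion, guidance and signalling were counted in the same way, beside the 7.42% of all LINC and AS features that differed. Of 13 extracellular matrix features, 3 were higher in the MZ, TNC-AS-2, RELN-AS-5 and LOXL1-AS-2. LOXL1-AS-2, antisense to an elastin crosslinking enzyme gene, had 1.47 and 3.22 CPM in the MZ against 0.0859 and 0.337 CPM in the CPo. LINC-HAS2-1, outside the list, is named after a hyaluronan synthase gene and had 15.6 and 8.44 against 1.80 and 4.15 CPM. Of 34 synaptic adhesion features, 2 were higher in the MZ, NRXN3-AS-8 (0.737 and 0.536 CPM) and LINC-CNTN1-1 (0.737 and 0.429 CPM), both without a count in the CPo, and PTPRS-AS-5 was higher in the CPo (0.0567 and 0.161 against 0.515 and 0.472 CPM). Of 22 axon guidance features, LINC-ROBO4-1 was higher in the MZ, and EPHB1-AS-5 (0.0567 and 0 against 0.430 and 0.574 CPM) and NEO1-AS-3 (2.38 and 1.74 against 4.81 and 5.23 CPM) were higher in the CPo. PLXNA4-AS-9, antisense to a semaphorin receptor gene and the most abundant of the list, had 112 and 115 CPM in the MZ and 125 and 211 CPM in the CPo and did not pass (adjusted p = 0.154). Of 18 cadherin features, LINC-CDH12-1 was higher in the CPo (0.680 and 1.15 against 3.09 and 5.16 CPM). FGF12-AS-1 was the only one of 6 FGF features to pass, at 4.65 and 1.80 CPM in the MZ against 0.644 and 0.202 CPM. LINC-KCNA4-5 was the only one of 11 voltage-gated channel features (1.70 and 4.10 against 0.859 and 0.371 CPM), and HTR3A-AS-1 the only one of 17 neurotransmitter receptor features. Of 40 solute carrier features, 3 were higher in the MZ, among them SLC25A23-AS-3 (7.71 and 6.67 against 3.69 and 2.70 CPM) and LINC-SLC4A7-1 (2.21 and 1.63 against 0.859 and 0.540 CPM). None of 5 WNT, 5 BMP and TGF-beta, and 8 Notch and Hedgehog features passed, whereas with the replicate block 2 BMP and TGF-beta features and 1 Notch and Hedgehog feature were higher in the MZ. The block also gave 3 synaptic adhesion features, 1 voltage-gated channel feature and 2 solute carrier features higher in the CPo, and 2 receptor and 5 solute carrier features higher in the MZ. FZD3-AS-1, antisense to a WNT receptor gene, lay at 51.0 and 48.3 CPM in the MZ and 43.2 and 62.0 CPM in the CPo. With 1 library left out, significance was lost for LINC-HAS2-1, PTPRS-AS-5, NEO1-AS-3, LINC-CDH12-1, FGF12-AS-1, SLC25A23-AS-3 and LINC-SLC4A7-1 (without MZ replicate 2, adjusted p from 0.0583 to 0.184), LOXL1-AS-2, PTPRS-AS-5, EPHB1-AS-5, NEO1-AS-3, LINC-CDH12-1, LINC-KCNA4-5, SLC25A23-AS-3 and LINC-SLC4A7-1 (without MZ replicate 3, adjusted p from 0.0804 to 0.379), LOXL1-AS-2, LINC-HAS2-1, NRXN3-AS-8, LINC-CNTN1-1, PTPRS-AS-5, NEO1-AS-3, LINC-CDH12-1, LINC-KCNA4-5, SLC25A23-AS-3 and LINC-SLC4A7-1 (without CPo replicate 2, adjusted p from 0.0583 to 0.225), and LINC-HAS2-1, NRXN3-AS-8, LINC-CNTN1-1, PTPRS-AS-5, NEO1-AS-3, LINC-CDH12-1, FGF12-AS-1, LINC-KCNA4-5, SLC25A23-AS-3 and LINC-SLC4A7-1 (without CPo replicate 3, adjusted p from 0.0511 to 0.273).

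Some symbols occurred more than once among the features that differed. SOX1 and TMEM132B had 3 features each higher in the MZ and NDST4 had 2. TMEM132B codes for a membrane protein, 38 features carry its symbol, and the 3 were LINC-TMEM132B-23 (2.10 and 3.51 against 0.172 and 0.101 CPM), LINC-TMEM132B-21 (0.397 and 0.402 against 0 and 0.0337 CPM) and LINC-TMEM132B-26 (0.850 and 0.831 against 0 and 0.0675 CPM). PPIA had 2 features higher in the MZ and 1 higher in the CPo, among 86 with that symbol. In the CPo direction, EPB41L5 and PPP4R1 had 2 features each. PPP4R1-AS-2 had 1.70 and 1.66 against 3.91 and 4.22 CPM, and PPP4R1-AS-3 had 0.227 and 0 against 0.902 and 1.01 CPM. Significance was lost on leaving out a library for PPP4R1-AS-2 (without MZ replicate 2, adjusted p = 0.119), LINC-TMEM132B-21, PPP4R1-AS-2 and PPP4R1-AS-3 (without MZ replicate 3, adjusted p from 0.106 to 0.257), LINC-TMEM132B-21, LINC-TMEM132B-26 and PPP4R1-AS-2 (without CPo replicate 2, adjusted p from 0.0610 to 0.155), and LINC-TMEM132B-21, PPP4R1-AS-2 and PPP4R1-AS-3 (without CPo replicate 3, adjusted p from 0.0728 to 0.152).

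More abundant features, chosen after their values were seen as those with a mean of at least 5 CPM in the higher layer, differed as well. SVIL-AS-4, antisense to the gene for the actin-binding protein supervillin, had 14.7 and 7.90 CPM in the MZ and 0.644 and 0.945 CPM in the CPo (log2 fold change 3.81 ± 0.50, adjusted p = 1.90e-05). LINC-SRRM2-2 had 18.5 and 11.6 against 1.59 and 1.35 CPM. APOD-AS-2, antisense to the apolipoprotein D gene, had 8.62 and 1.77 against 0.902 and 0.337 CPM, with the MZ libraries far apart. EPB41L4A-AS-3 was at 91.4 and 107 CPM in the MZ and 45.7 and 39.1 CPM in the CPo (log2 fold change 1.22 ± 0.23, adjusted p = 5.99e-04). CTSB-AS-1, antisense to the lysosomal cathepsin B gene, was at 41.0 and 56.6 against 17.8 and 23.2 CPM. Antisense features of a pair of kinase anchor genes, AKAP13-AS-6 (22.4 and 23.2 against 6.79 and 6.24 CPM) and AKAP12-AS-2 (49.1 and 28.8 against 14.3 and 22.4 CPM), were both higher in the MZ. ALDH7A1-AS-1 (17.7 and 20.7 against 6.70 and 6.21 CPM) and LINC-EI24-1 (109 and 115 against 74.6 and 67.0 CPM) had MZ libraries close together. ADGRG1-AS-2, antisense to an adhesion receptor gene needed for cortical patterning and basement membrane contact, was at 24.9 and 31.1 against 19.8 and 16.8 CPM. Outside this rule, and also chosen after the values were seen, the cyclin antisense features CCNB1-AS-1 (1.36 and 2.60 against 0.215 and 0.169 CPM) and CCNB2-AS-2 (3.85 and 4.64 against 1.33 and 1.45 CPM) were higher in the MZ. No longer significant with 1 library fewer were APOD-AS-2 and AKAP12-AS-2 (without MZ replicate 2, adjusted p = 0.138 and 0.311), CTSB-AS-1, ADGRG1-AS-2 and CCNB2-AS-2 (without MZ replicate 3, adjusted p from 0.0517 to 0.237), AKAP12-AS-2 and CCNB2-AS-2 (without CPo replicate 2, adjusted p = 0.280 and 0.0812), and APOD-AS-2, AKAP12-AS-2, LINC-EI24-1, ADGRG1-AS-2 and CCNB2-AS-2 (without CPo replicate 3, adjusted p from 0.0581 to 0.168).

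Abundant features were also found among those higher in the CPo. DLG2-AS-16, antisense to a postsynaptic scaffold gene, was at 7.99 and 7.50 CPM in the MZ and 23.7 and 43.9 CPM in the CPo (log2 fold change −2.13 ± 0.50, adjusted p = 0.00433). VLDLR-AS-2, antisense to a reelin receptor gene, was at 22.1 and 20.3 against 33.0 and 41.5 CPM (log2 fold change −0.82 ± 0.22, adjusted p = 0.00988). In the CPi its level was 54.4 and 54.7 CPM, above that of both CPo libraries. MYCN-AS-1, antisense to a proto-oncogene of neural growth, was at 3.12 and 2.60 against 7.99 and 8.03 CPM. SFPQ-AS-1 was at 21.9 and 14.9 against 35.4 and 49.4 CPM, and SCAF11-AS-1 was at 7.88 and 9.75 against 13.1 and 16.5 CPM. PFKP-AS-1, antisense to a glycolysis gene, was at 4.42 and 1.39 against 7.69 and 11.9 CPM. LINC-KCNJ3-1, named after a potassium channel gene and below the mean of 5 CPM, was at 1.53 and 1.66 against 4.73 and 4.22 CPM. The most abundant of all, LINC-FBXO7-2, was at 121 and 89.7 against 199 and 132 CPM, and MZ replicate 2 lay close to CPo replicate 3. The threshold was missed with 3 libraries for MYCN-AS-1, SCAF11-AS-1 and LINC-KCNJ3-1 (without MZ replicate 2, adjusted p from 0.0543 to 0.178), DLG2-AS-16, VLDLR-AS-2, MYCN-AS-1, SFPQ-AS-1, SCAF11-AS-1, PFKP-AS-1, LINC-KCNJ3-1 and LINC-FBXO7-2 (without MZ replicate 3, adjusted p from 0.0573 to 0.353), MYCN-AS-1, LINC-KCNJ3-1 and LINC-FBXO7-2 (without CPo replicate 2, adjusted p from 0.0673 to 0.450), and DLG2-AS-16, VLDLR-AS-2, MYCN-AS-1, SFPQ-AS-1, SCAF11-AS-1, PFKP-AS-1 and LINC-KCNJ3-1 (without CPo replicate 3, adjusted p from 0.0660 to 0.236).

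The TSDBGID features, which have no symbol here, followed the same asymmetry, with 1996 of 12995 higher in the MZ and 1330 higher in the CPo. TSDBGID.13305 had 13.7 and 34.1 CPM in the MZ and 0.0859 and 0 CPM in the CPo, and TSDBGID.21603 had 5.44 and 17.0 against 0.0430 and 0 CPM. In the other direction, TSDBGID.4722 had 0.737 and 2.30 against 6.06 and 28.2 CPM and TSDBGID.8130 had 2.72 and 2.81 against 15.1 and 19.2 CPM. Leaving out single libraries ended significance for TSDBGID.8130 (without MZ replicate 3, adjusted p = 0.0876), and TSDBGID.4722 (without CPo replicate 3, adjusted p = 0.0937).

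The features that differed between the MZ and the CPo were also set beside the other E37 layers. Of the 118 LINC and AS features higher in the MZ, 102 were higher in both MZ libraries than in both CPi libraries, and 78 were higher than in every other E37 library analysed, the CPi, CPo, CP and IZ. Of the 71 higher in the CPo, 25 were higher in both CPo libraries than in both CPi libraries, and 12 were higher than in every other E37 library, while in 69 both CPi libraries also lay above both MZ libraries. LINC-SSTR2-2, for example, had 11.5 and 5.03 CPM in the CPi and 2.69, 12.0 and 2.06 CPM in the IZ. ZNF238-AS-1 had 9.78 and 9.95 CPM in the CPi, and SVIL-AS-4 had 0.425 and 0.714 CPM there. Over all features the numbers were alike in direction, with 1980 of the 2115 higher in the MZ above both CPi libraries and 1353 above every other E37 library, and with 262 and 114 of the 1403 higher in the CPo. These are descriptions, since the MZ and CPo libraries chose the features. Those higher in the MZ were chosen above 1 part of the plate and then set against its other part. Those higher in the CPo were chosen against the MZ and set against that other part of their own plate. The unequal counts can come from this choice, and the shares over all features tested were not computed.

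**Figure D4:**
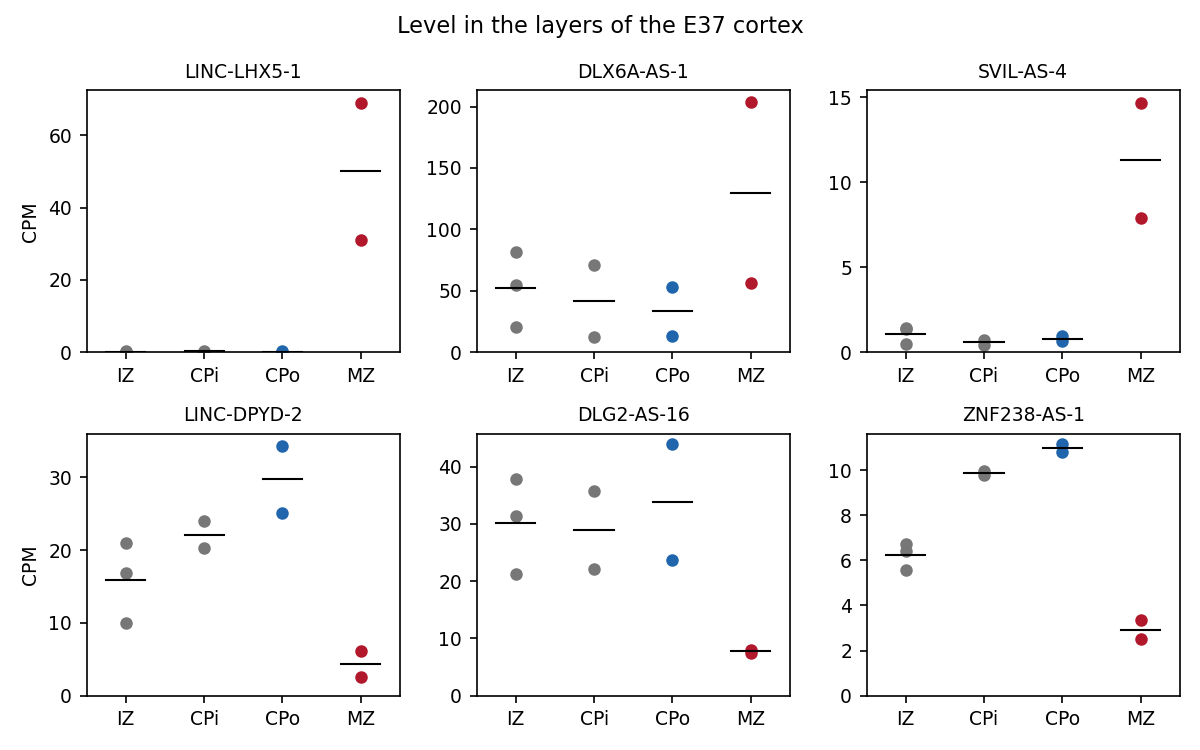
CPM (y axis, from 0) of 6 LINC and AS features in the E37 layers, IZ (3 libraries), CPi, CPo and MZ (2 each), with 1 point per library and a bar at the mean. Of the 3 features higher in the MZ, LINC-LHX5-1 and SVIL-AS-4 stand apart in that layer and DLX6A-AS-1 overlaps with the IZ and CPi, whereas the 3 higher in the CPo are also higher in the CPi than in the MZ.

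The same layers at E42 and E28 showed mostly the same direction. Their libraries do not enter the E37 log2 fold changes, but they share the model and its spread with the E37 libraries. The lists of features that passed at the 3 stages are therefore not independent. All 3 also hold only features kept by the filter on the E37 MZ and CPo libraries. Features too low at E37 could not enter the E42 and E28 lists, so the shares of these lists can be too high. At E42 (MZ against CPo, 2 libraries each), 113 of the 118 features higher in the MZ at E37 had the same sign (95.8%) and 64 passed in the same direction (54.2%), against 4.79% of all LINC and AS features tested, and these make up 52.5% of the E42 list. Of the 71 higher in the CPo, 62 had the same sign (87.3%) and 25 passed (35.2%), against 2.36% of all LINC and AS features, or 41.7% of the E42 list. At E28 the plate was not divided, and the MZ was set against the whole CP. There, 101 of the 118 had the same sign and 44 passed (37.3%, against 4.36% of all, or 39.6% of the E28 list), and of the 71, 56 had the same sign and 14 passed (19.7%, against 2.32% of all, or 23.7% of the E28 list). None passed in the opposite direction at either stage. The E42 list held 122 LINC and AS features higher in the MZ and 60 higher in the CPo, and it fell to 64 and 16 without MZ replicate 2, to 55 and 31 without CPo replicate 1 and to 48 and 29 without CPo replicate 2. The E28 list held 111 and 59, against 93 and 98 without MZ replicate 1, 92 and 134 without MZ replicate 2, 58 and 41 without CP replicate 1 and 60 and 33 without CP replicate 2. At all 3 stages 33 features passed toward the MZ and 9 toward the plate.

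LINC-LHX5-1 kept its difference at E42 (log2 fold change 7.70, adjusted p = 1.18e-06, edgeR) and at E28 (6.18, 7.04e-06). SALL1-AS-1, GAD1-AS-1, HTR3A-AS-1 and RELN-AS-5 passed toward the MZ at all 3 stages, with log2 fold changes at E42 from 1.85 (GAD1-AS-1) to 5.39 (RELN-AS-5). SST-AS-1 did not pass at E42 (0.97, adjusted p = 0.496, edgeR). LINC-IRX6-2 had 0 CPM in every E28 MZ and CP library, so it could not pass at that stage. On the plate side, LINC-ZNF420-2 had nearly equal log2 fold changes of −0.72, −0.72 and −0.72 at E37, E42 and E28. DLG2-AS-16 (−2.02 and −1.92 at E42 and E28), VLDLR-AS-2 (−1.31 and −1.37) and ZNF238-AS-1 (−2.15 and −1.82) passed at both other stages. IDI1-AS-2 (−0.55, adjusted p = 0.738) and CAP2-AS-1 (0.21, adjusted p = 0.810) passed at E37 and not at E42, and the change from E37 to E42 did not pass for either (adjusted p = 0.741 and 0.292).

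**Figure D5:**
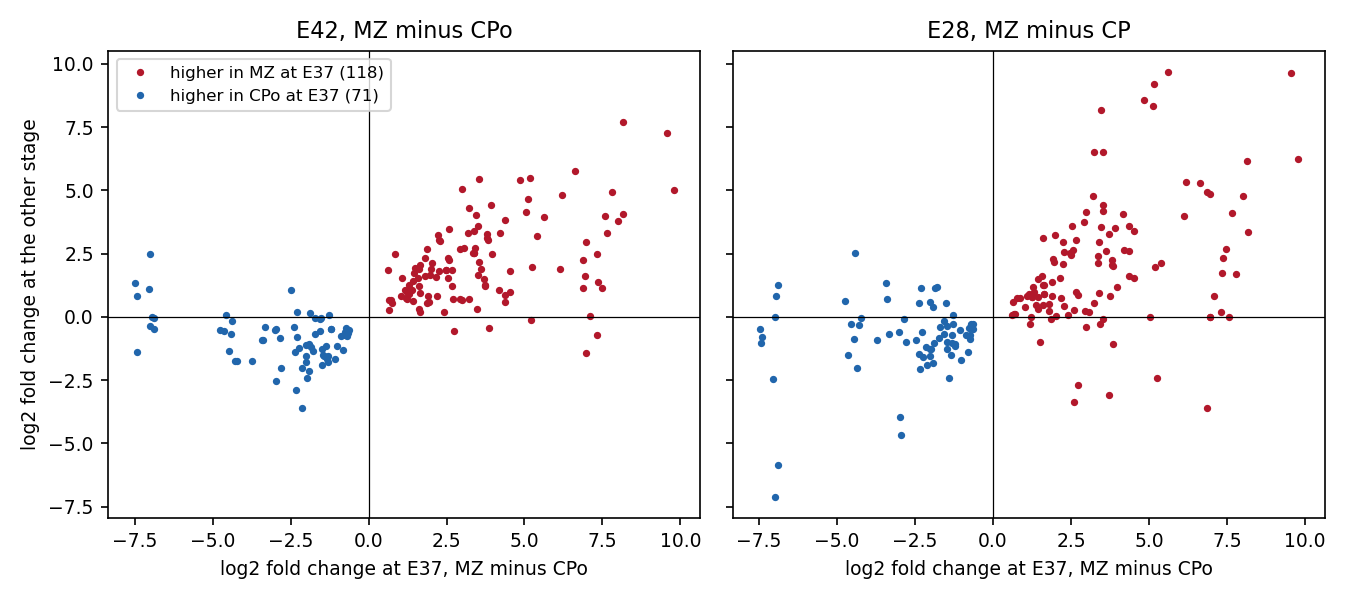
Log2 fold change at E42 (left, MZ minus CPo) and at E28 (right, MZ minus CP) against that at E37 for the 189 LINC and AS features that differed at E37, 1 point per feature. Most red points (higher in the MZ at E37) lie above 0 and most blue points (higher in the CPo at E37) below 0 at both stages.

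The difference between the layers changed from E37 to E42 in 29 of the 15570 features (0.186%, edgeR interaction term), and 841 had an unadjusted p under 0.05. In 26 of the 29 it moved toward the MZ. LINC-GLUL-1, named after the glutamine synthetase gene of astrocytes and radial glia, was the only one with a gene symbol. At E37 it had 48.5 and 35.5 CPM in the MZ and 38.1 and 46.1 CPM in the CPo, with overlapping layers (log2 fold change −0.01 ± 0.18). At E42 it had 151 and 156 CPM in the MZ (replicates 1 and 2) and 36.1 and 32.0 CPM in the CPo, a log2 fold change of 2.17. The change of the difference was 2.18 ± 0.26 SE (adjusted p = 1.37e-04). At E28 the MZ lay below the CP, at 23.5 and 19.8 against 40.9 and 39.5 CPM (log2 fold change −0.89, adjusted p = 0.00199).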

How the data were processed

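Poly(A) RNA of laser-captured layers of fetal tree shrew cortex was sequenced by the authors, who trimmed adapters, mapped the reads with HISAT2 against the tree shrew genome and counted them on its TS_3.0 annotation with HTSeq. The authors deposited whole-number counts per annotated feature, not normalized. The counter's own lines for unassigned reads were left out of library sizes and tests; they were 44.8% to 52.0% of the lines of the 4 libraries. The strand setting is not given in the sources used here.

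Layers and stages were taken from the labels. Libraries of 18 groups entered 1 model, 35 in all, since 2 VZ libraries (of E28 and of E42) held identical counts and the E42 one was left out. Features were kept by filterByExpr (minimum count 10) on the 4 E37 MZ and CPo libraries, normalized by TMM and tested by quasi-likelihood in edgeR 4.0.16 (robust fit, R 4.3.3) (17 residual degrees of freedom), with Benjamini-Hochberg adjustment within each comparison and a threshold of 0.05. Rare features could pass that filter through 1 layer alone, so the share of a gene list that differed was partly set by it. Data were simulated for this comparison over 15570 features, of which 200 were changed. The test found 54% of those changed by a log2 of 2 and 20% of those changed by 1, with 1 false call among 75. The Wald test of DESeq2 1.42.0 found 69% and 32%, with 18 false calls among 119. Figures were drawn with matplotlib in Python.

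Named features were, by rule, the 12 in each direction with the largest difference among those past the threshold, with non-overlapping layers and at least 1 CPM; up to 4 members of each of 24 gene lists with the smallest adjusted p; symbols with most features past the threshold; and 2 TSDBGID features of at least 5 CPM in each direction. The comparison and the lists were chosen with earlier results of these data known, and 64 further features were added after their values were seen. A few named features enter the counts and are not reported here. Depth limits rare features, since 3 counts over the MZ group equal 0.0546 CPM and over the CPo group 0.0567 CPM, and intervals cover counting error only, because duplicate reads cannot be told from separate molecules.

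The labels do not say what a replicate number marks. The p-values and SEs rest on the spread between libraries of the same group, shared over all 18 groups of the model. They do not rest on the 4 MZ and CPo libraries alone, and a fit of those alone found fewer features, as given below. Deviations of same-numbered libraries from their layer means correlated above 0.1 in 6 of 6 pairs of E37 layers (0.273 to 0.478, and 0.340 for the MZ and CPo), so the number was taken to pair the libraries, from these values and not from the labels. Replicates differed by far more than sampling noise (chi-square per degree of freedom 65.1 in the MZ and 62.7 in the CPo). Log2 CPM correlated at 0.948 between the MZ libraries and 0.965 between the CPo libraries.

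Alternatives were no filter, a filter on all libraries, DESeq2, DESeq2 size factors, TMM from LINC and AS features, all 36 libraries, only the layers compared, only the 10 E37 libraries, the replicate block, library sizes without the 20 top features, a log2 threshold of 1, and single libraries left out. For E42 and E28, leaving out single libraries was added after the data were seen.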

Additional observations from a re-analysis of the deposited data

Results flagged for a closer look

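The difference between the MZ and the CPo changed from E37 to E42 in 29 features by the interaction term of the edgeR model. For LINC-GLUL-1 the change was 2.18 on the log2 scale (adjusted p = 0.000137), toward the MZ. Leaving out any 1 of the 8 libraries of the 2 stages gave a change between 1.97 and 2.42, with an adjusted p of at most 0.00455, while the fit of only the layers compared gave 2.20 with an adjusted p of 0.0796. The number of features depended on the fit, as given below.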

How the results depend on the processing

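A fit of only the layers compared gave fewer features at E37 and E28 and more at E42. Of the 105 named features past the threshold at E37, 63 missed it in this fit. At E37 this fit found 861 higher in the MZ and 436 in the CPo (35 and 15 among LINC and AS features), at E28 68 and 15, and at E42 3272 and 2455. For the change from E37 to E42 it found 0 in either direction, with 535 and 331 at an unadjusted p under 0.05 (edgeR). In the fit of 35 libraries, DESeq2 found 87 that changed toward the MZ and 14 toward the CPo, and edgeR found 26 and 3. The 10 E37 libraries alone gave 56 LINC and AS features higher in the MZ and 56 in the CPo. With all 36 libraries, 751 features were higher in the CP at E28, and 3 and 1 changed between stages. TMM from LINC and AS features gave 957 higher in the CPo at E42, 954 higher in the MZ at E28 and 17 that changed toward the MZ. A log2 threshold of 1 left 392, 549 and 390 features on the plate side at E37, E42 and E28. The filter on all libraries turned the LINC and AS split to 95 against 105, and no filter to 85 against 85. Of the E37 calls on the MZ side under alternatives that kept all 4 libraries, DESeq2 gave 2333 features and 144 LINC and AS features, and on the CPo side 1759 and 102. The causes were not tested.

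With the replicate number as a block, more features passed. At E37 it gave 181 LINC and AS features higher in the MZ, 2445 features and 129 LINC and AS features higher in the CPo, at E42 2781 features and 122 LINC and AS features higher in the CPo, at E28 2454 and 2193 (186 and 116 among LINC and AS features), and for the change 84 and 22. Of the 3518 features and 189 LINC and AS features found without the block, 3516 and 187 also passed with it.

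Leaving out 1 library rests the lone library of its layer on the spread of the other groups. At E37, it gave 1092 to 2194 features higher in the MZ and 257 to 1478 higher in the CPo (47 to 112 and 25 to 78 among LINC and AS features). At E42 it gave 1401 to 1949 and 774 to 1144, at E28 783 to 1446 and 528 to 1248, and for the change 5 to 21 and 1 to 3. Of 105 named features past the threshold, 21 passed in every alternative, and none changed sign. Of the 41 others, not past the threshold, 8 changed sign under the block or without 1 library, 15 times in all, also without passing. With the block these were CTNNB1-AS-2 (0.10) and LINC-DUSP6-2 (−0.30). Over the fits without 1 library, the log2 fold change ran from −0.61 to 0.43 for LINC-SOX17-9, −1.48 to 0.55 for DCN-AS-1, −4.12 to 0.037 for LINC-CHRM2-4, −0.32 to 0.20 for FZD3-AS-1, −0.76 to 1.51 for CTNNB1-AS-2, −4.61 to 2.47 for LINC-DUSP6-2, −0.0042 to 1.77 for LINC-HES6-1 and −0.25 to 0.20 for LINC-GLUL-1. In the simulation 20% of features changed by 1 log2 unit were found. Only 200 features were changed there, whereas 3518 differed at E37. The share therefore does not carry over to these data, and differences of this size can have been missed.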
